A study of Mus musculus with 6 samples.

Results

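Serpins are a family of proteins that share 1 fold and an exposed reactive center loop. In most of them a target protease cleaves the loop and is trapped as a covalent complex, while a few serpins have lost this activity and carry hormones or assist protein folding. Mouse serpins are grouped by a clade letter in their symbols. Clade A contains alpha-1-antitrypsin and its relatives, which the liver secretes. Clade B contains serpins that mostly stay inside the cell, among them inhibitors of granzymes and of leukocyte elastase. Several clades have expanded into runs of closely related copies in the mouse.

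The family was taken as every transcript cluster of the array whose annotation held exactly 1 gene symbol beginning with Serpin, with the cluster of highest mean kept for each gene. This gave 54 Serpin genes of 22180 genes measured this way, from 55 clusters, since Serpinb9b had 2. The second cluster of Serpinb9b gave signals between 3.43 and 3.70 on the arrays. Clade A held 20 genes and clade B held 25. Clades F and I held 2 genes each, and clades C, D, E, G and H held 1 gene each. The clade E gene was Serpine3. All 54 Entrez identifiers matched the RefSeq gene table of GRCm38.p6, which lists 69 Serpin gene models, and the remaining gene models were not analysed here.

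The cells were D2.OR, a mouse mammary carcinoma line of the D2.HAN series that stays latent after it disseminates. BORG/sgTRIM28 cells expressed the long noncoding RNA BORG and carried a CRISPR/Cas9 guide against TRIM28, a transcriptional corepressor. BORG cells expressed BORG alone, and parental cells carried the empty vector, with 2 arrays in each group. All cells grew for 7 days in 3D-culture on a basement membrane cushion (Cultrex), and the labels describe the arrays of a group as biological replicates. Whether the groups without sgTRIM28 carried a control guide is not stated in the labels, nor is it stated whether a group is a clone or a pool. In bulk RNA of this kind, fewer cells of a type and less RNA per cell cannot be told apart.

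Values are log2 signals, so a difference of 1 is a 2-fold change, and the 6 array medians lay between 5.18 and 5.24. Groups were compared in limma on all 6 arrays, and a gene was called when its p, adjusted over 41345 clusters, was under 0.05. Trim28, the targeted gene, had signals of 9.50 and 9.53 in BORG/sgTRIM28 cells, 9.88 and 9.96 in BORG cells and 10.49 and 10.68 in parental cells. It was the lowest in the cells with the guide, but BORG/sgTRIM28 minus BORG was -0.41 (SE 0.12, adjusted p = 0.0911 from limma), and BORG minus parental was already -0.67 (SE 0.12, adjusted p = 0.0271). Transcript level is a weak check of a knockout made by small edits in the coding sequence. Of the epithelial markers, Krt8 had signals of 9.70 and 9.71 in BORG/sgTRIM28 cells, 11.09 and 10.81 in BORG cells and 9.55 and 9.73 in parental cells, while Epcam stayed between 4.68 and 5.01. Krt8, Krt18 and Krt14, 3 of 7 measured epithelial markers, were called higher in BORG cells than in parental cells and lower in BORG/sgTRIM28 cells than in BORG cells.

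Few serpins passed a filter on dim clusters. Only 7 of the 54 genes had a mean above 5.21, the median of all clusters, and 47 lay below it. The 7 were Serpinb9, Serpinb9b, Serpinb9e, Serpinb9f, Serpinb6a, Serpinf1 and Serpinh1. No detection value was used, so the signal over background of the dim genes is unknown. The arrays of a group differed by a median of 0.15 over the 54 genes in BORG/sgTRIM28 cells, 0.18 in BORG cells and 0.13 in parental cells. Wider gaps were more frequent in BORG cells, where 6 of the 54 genes differed by more than 0.5 between the arrays, against 2 in BORG/sgTRIM28 cells and 2 in parental cells. The widest was that of Serpinb9e, at 1.46.

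Among the serpins, the changes that passed the test centered on 3 genes of the Serpinb9 group. Serpinb9 inhibits granzyme B, the protease that cytotoxic lymphocytes deliver to their targets, and Serpinb9e and Serpinb9f are copies of it found in a run of such genes on mouse chromosome 13. Serpinb9e and Serpinb9f lie next to each other. The 250 bases before their annotated starts (RefSeq, GRCm38.p6) are shown because they are almost the same sequence, as are those of Serpinb9g, which was not called. Capitals in Serpinb9f and Serpinb9g mark bases that differ from the aligned base of Serpinb9e. Serpinb9e lies at chr13:33249358-33249607, Serpinb9f at chr13:33323827-33324076 and Serpinb9g at chr13:33484540-33484789, all on the plus strand.
Serpinb9e: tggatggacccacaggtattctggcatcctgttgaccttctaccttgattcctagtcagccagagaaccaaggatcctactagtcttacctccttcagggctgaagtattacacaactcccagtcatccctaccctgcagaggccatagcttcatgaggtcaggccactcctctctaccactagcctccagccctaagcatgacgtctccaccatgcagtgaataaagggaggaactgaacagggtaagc
Serpinb9f: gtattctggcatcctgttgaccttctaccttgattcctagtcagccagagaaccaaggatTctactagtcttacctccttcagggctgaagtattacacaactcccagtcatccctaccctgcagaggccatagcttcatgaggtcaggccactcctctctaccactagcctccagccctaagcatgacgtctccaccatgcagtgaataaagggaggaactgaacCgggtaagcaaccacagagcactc
Serpinb9g: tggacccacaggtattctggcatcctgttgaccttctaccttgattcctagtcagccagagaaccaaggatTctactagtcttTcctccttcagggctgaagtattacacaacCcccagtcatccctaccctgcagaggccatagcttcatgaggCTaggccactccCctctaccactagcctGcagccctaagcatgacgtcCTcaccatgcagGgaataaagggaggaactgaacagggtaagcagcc
Of 235 aligned bases of Serpinb9f and Serpinb9e, 233 were identical (99.1%), and the annotated starts are offset, so the 250 bases do not align in full. Serpinb9g matched Serpinb9e at 236 of 246 aligned bases (95.9%) and Serpinb9d did so at 225 of 245 (91.8%). The sequence before Serpinb9 itself was far more distant, as the stretch at chr13:33004291-33004540 on the plus strand shows.
Serpinb9: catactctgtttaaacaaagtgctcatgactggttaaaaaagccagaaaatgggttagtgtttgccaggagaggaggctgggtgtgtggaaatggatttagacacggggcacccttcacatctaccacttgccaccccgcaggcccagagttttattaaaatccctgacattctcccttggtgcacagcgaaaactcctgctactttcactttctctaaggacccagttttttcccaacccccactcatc
Across 217 aligned bases it shared 57.6% with Serpinb9d. It was closer to Serpinb9b, with 154 of 226 aligned bases identical (68.1%). Only bases before the starts were compared, and no transcript or probe sequence was. If the transcripts are as alike, probes of 1 cluster may also bind the transcript of a neighbor. The values of Serpinb9d, Serpinb9e, Serpinb9f and Serpinb9g are therefore uncertain as measures of single genes. Their means in BORG/sgTRIM28 cells were 3.28, 10.87, 8.44 and 3.65 in that order, and binding across copies was not tested.

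Serpinb9e had signals of 10.68 and 11.06 in BORG/sgTRIM28 cells, 6.91 and 8.37 in BORG cells and 10.80 and 10.90 in parental cells. Both BORG arrays lay far below the other 4, although they were also far from each other. The gene was 9.26-fold lower in BORG cells than in parental cells (log2 -3.21, SE 0.45, adjusted p = 0.0142 from limma). In BORG/sgTRIM28 cells it was 9.40-fold higher than in BORG cells (log2 3.23, SE 0.45, adjusted p = 0.0113). The size depended on the BORG arrays, with log2 differences of -2.48 for BORG minus parental and 2.50 for BORG/sgTRIM28 minus BORG without BORG array 1, and -3.94 and 3.96 without BORG array 2. The first call was lost without parental array 1 (adjusted p = 0.0889) or parental array 2 (adjusted p = 0.0978), and the second without BORG/sgTRIM28 array 1 (adjusted p = 0.0631) or BORG/sgTRIM28 array 2 (adjusted p = 0.0785).

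Serpinb9f had signals of 8.37 and 8.51 in BORG/sgTRIM28 cells, 5.88 and 6.41 in BORG cells and 8.26 and 8.54 in parental cells. Again the BORG arrays were below all others, and the remaining groups overlapped. The difference was -2.25 for BORG minus parental (SE 0.20, adjusted p = 0.00384) and 2.29 for BORG/sgTRIM28 minus BORG (SE 0.20, adjusted p = 0.00281). Serpinb9 had closer replicates, with signals of 9.12 and 9.09 in BORG/sgTRIM28 cells, 7.76 and 7.89 in BORG cells and 8.92 and 8.96 in parental cells. It was 2.17-fold lower in BORG cells than in parental cells (log2 -1.12, SE 0.11, adjusted p = 0.0049), and 2.43-fold higher in BORG/sgTRIM28 cells than in BORG cells (log2 1.28, SE 0.11, adjusted p = 0.00245).

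**Figure D1:**
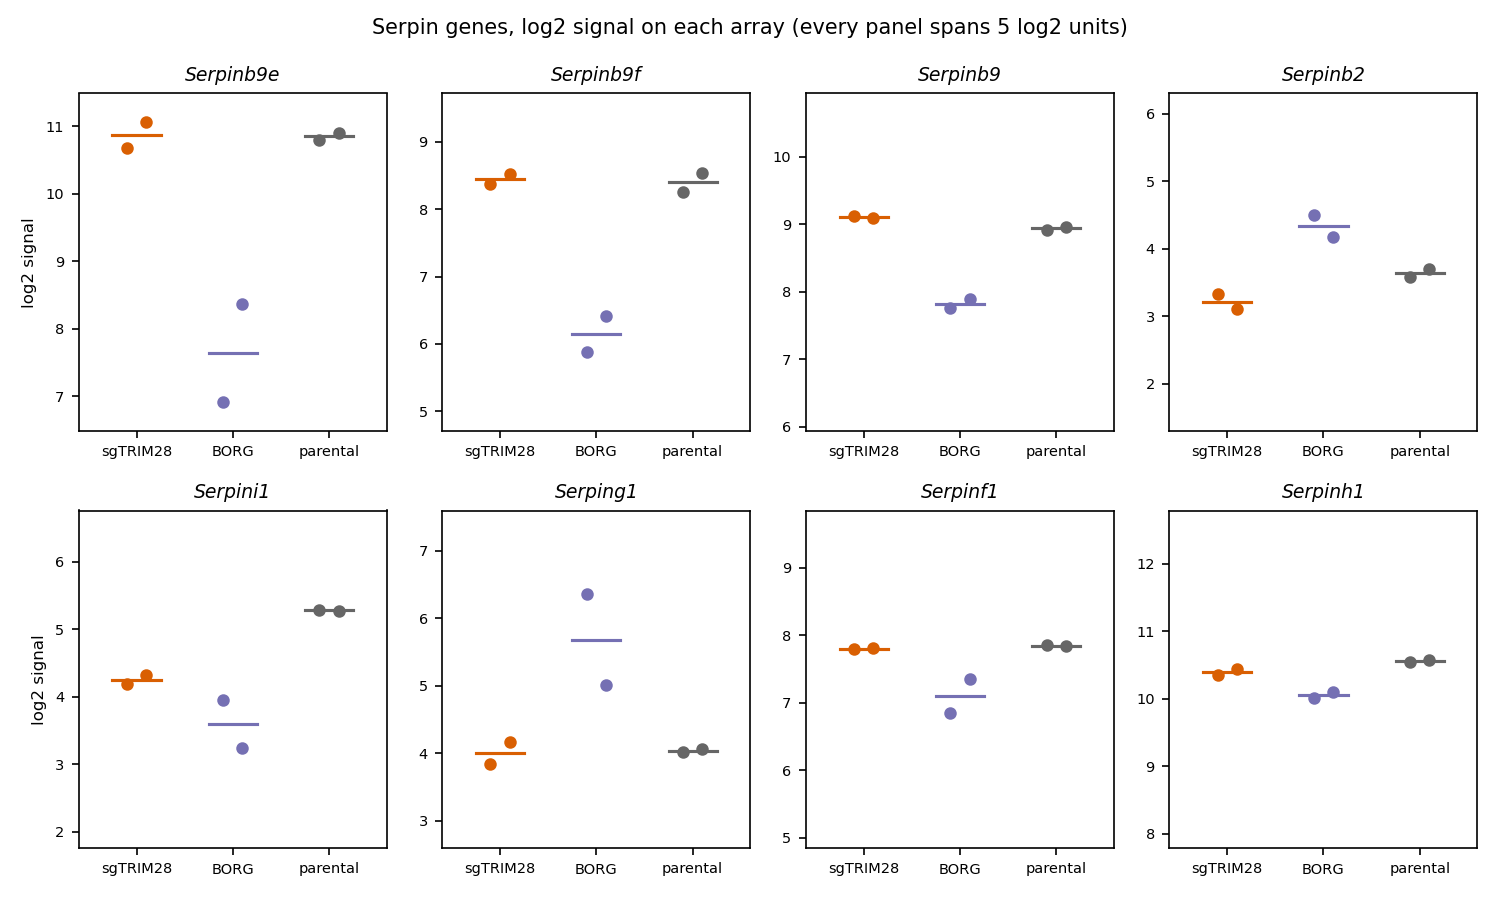
Log2 signal (y axis) of 8 Serpin genes on each of the 6 arrays, with BORG/sgTRIM28 at the left, BORG in the middle and parental at the right of every panel. Points are arrays and lines are the means of 2 arrays. Serpinb9e, Serpinb9f and Serpinb9 had their lowest signals on the BORG arrays, and Serpinb2 had its highest there.

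The other 4 Serpinb9 genes were not called. Serpinb9g had signals of 3.34 and 3.96 in BORG/sgTRIM28 cells, 2.72 and 2.88 in BORG cells and 3.27 and 2.79 in parental cells, with 0.85 for BORG/sgTRIM28 minus BORG (SE 0.25, adjusted p = 0.0986). Serpinb9d had 3.24 and 3.33 in BORG/sgTRIM28 cells, 2.59 and 2.99 in BORG cells and 3.31 and 3.17 in parental cells. Serpinb9c differed by 0.45 for BORG/sgTRIM28 minus BORG, and Serpinb9b by 0.05. All 7 Serpinb9 genes had a negative difference for BORG minus parental, between -3.21 and -0.18, and a positive one for BORG/sgTRIM28 minus BORG, between 0.05 and 3.23. Both comparisons use the same BORG arrays, so opposite signs in them are not independent, and near-identical copies are not separate measurements. The 7 genes were singled out after their values had been seen.

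RefSeq places 17 Serpin gene models in a row around Serpinb9, with no other protein-coding gene between them, and 15 were measured. Serpinb1a, Serpinb1b and Serpinb1c, the mouse relatives of the leukocyte elastase inhibitor, differed by -0.05, 0.10 and -0.19 for BORG minus parental, and none was called. Serpinb6b, Serpinb6c, Serpinb6d and Serpinb6e differed by between -0.15 and -0.01. Serpinb6a, whose human counterpart inhibits cathepsin G, had signals of 6.83 and 6.88 in BORG/sgTRIM28 cells, 6.85 and 7.33 in BORG cells and 6.60 and 6.88 in parental cells, with overlap between BORG and parental cells. Of the 15 genes, 3 were called lower in BORG cells than in parental cells, beside 2.98% of all clusters, and the same 3 were called higher in BORG/sgTRIM28 cells than in BORG cells, beside 4.24%. The locus was singled out with these values known, so the shares are a description. Serpinb9b, Serpinb1b, Serpinb9c and Serpinb9d, which lie between Serpinb9 and Serpinb9e, were not called in either comparison.

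**Figure D2:**
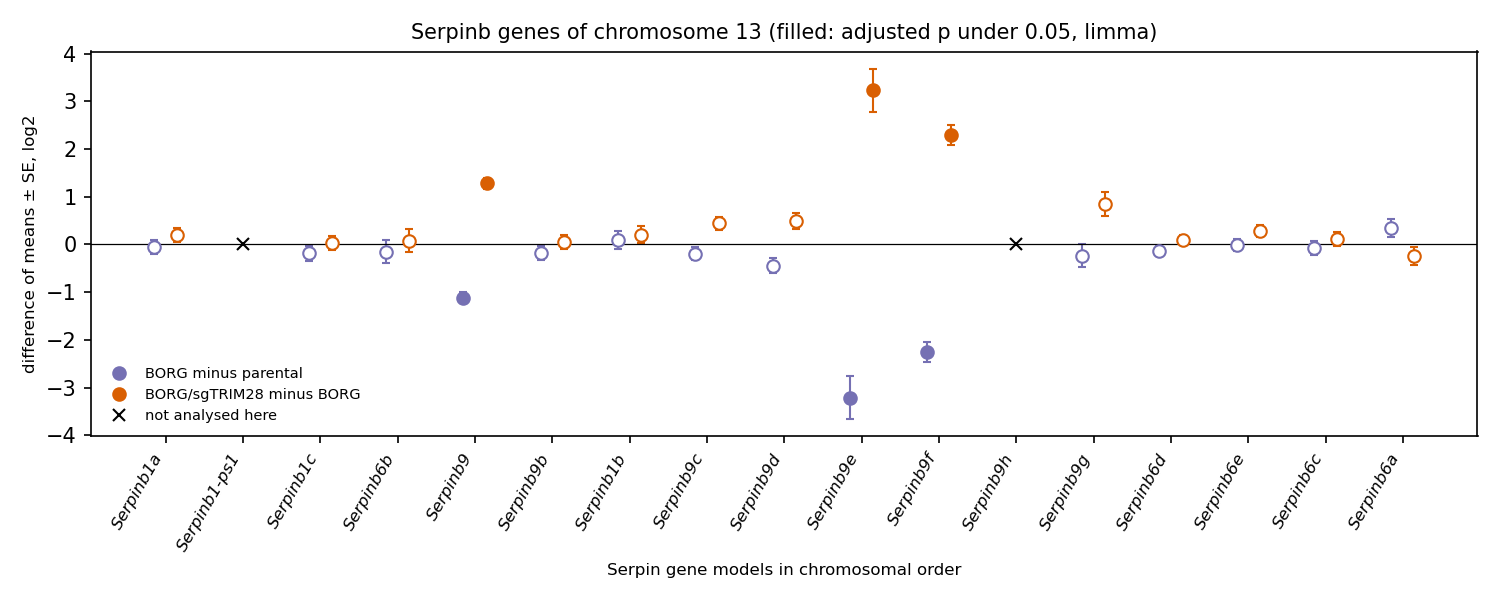
Difference of group means (log2, y axis, bars are standard errors from limma) for the Serpin gene models of the chromosome 13 run, in chromosomal order along the x axis. Filled points had an adjusted p under 0.05, and crosses are gene models not analysed here. Serpinb9, Serpinb9e and Serpinb9f stand out, with values of -1.12, -3.21 and -2.25 for BORG minus parental.

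Serpinb9 is also used by leukocytes, so their markers were read beside it. None of the 7 measured leukocyte markers was called in any comparison. Their mean signal lay between 4.81 and 4.93 in BORG/sgTRIM28 cells, 4.77 and 4.85 in BORG cells and 4.71 and 4.86 in parental cells. The defining marker Ptprc stayed between 3.39 and 3.64 on all arrays. Cd68, the 1 marker of the list above the median signal, lay between 8.04 and 8.37. The granzyme B gene Gzmb, a target of Serpinb9, had signals of 3.44 and 3.75 in BORG/sgTRIM28 cells, 3.39 and 3.58 in BORG cells and 3.54 and 3.43 in parental cells. Its groups overlapped in each comparison.

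The other 10 clade B genes lie around Serpinb2 on chromosome 1. Serpinb2 encodes plasminogen activator inhibitor type 2, which inhibits urokinase. It had signals of 3.33 and 3.10 in BORG/sgTRIM28 cells, 4.50 and 4.18 in BORG cells and 3.58 and 3.70 in parental cells, so that the BORG arrays were the highest and the BORG/sgTRIM28 arrays the lowest. It was called lower in BORG/sgTRIM28 cells than in BORG cells, by 2.17-fold (log2 -1.12, SE 0.16, adjusted p = 0.0116). The difference of 0.70 for BORG minus parental did not pass (SE 0.16, adjusted p = 0.0551). A further cluster annotated to both Serpinb10 and Serpinb2 was assigned to neither gene, and its signals lay between 3.38 and 3.70 with no call.

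Short motifs were searched on both strands of the 250 bases before the annotated starts of 47 Serpin genes with a listed sequence. TGANTCA, a form of the AP-1 site, was found at 1 place before Serpinb2, in capitals below, starting 94 bases before the start at chr1:107511173-107511422 on the plus strand.
Serpinb2: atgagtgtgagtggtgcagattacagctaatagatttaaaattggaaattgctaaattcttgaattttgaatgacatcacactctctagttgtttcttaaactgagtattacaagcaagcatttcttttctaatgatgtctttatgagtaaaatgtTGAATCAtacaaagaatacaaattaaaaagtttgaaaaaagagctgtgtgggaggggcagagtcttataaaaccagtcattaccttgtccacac
TGANTCA was present before 10 of the 47 Serpin genes (21.3%), against 6.85% of 27025 mouse promoters. The 10 included Serpinb5, Serpinb7, Serpinb8, Serpinb11, Serpinb12 and the related copies Serpina1a, Serpina1b, Serpina1c and Serpina1d, which are not separate cases. Of these genes Serpinb2 alone was called in a comparison. ACGTG and GCGTG, both forms of the core of the hypoxia response element, were found before 5 (10.6%) and 6 (12.8%) Serpin genes, against 16.5% and 28.3% of all promoters. None of the 3 motifs was found before Serpinb9, Serpinb9e or Serpinb9f.

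Serpinb8, whose human counterpart inhibits furin, had signals of 4.34 and 4.85 in BORG/sgTRIM28 cells, 5.23 and 4.75 in BORG cells and 3.91 and 4.29 in parental cells. The BORG and parental arrays did not overlap, but the difference of 0.89 was not called (SE 0.25, adjusted p = 0.103). Serpinb5, which encodes maspin, a non-inhibitory serpin of mammary epithelium, had 4.46 and 4.22 in BORG/sgTRIM28 cells, 4.85 and 4.59 in BORG cells and 4.69 and 4.43 in parental cells. Its groups overlapped between BORG and parental cells, with a difference of 0.16 (SE 0.16, adjusted p = 0.663). Serpinb3a, Serpinb3c, Serpinb3d, Serpinb7, Serpinb11, Serpinb12 and Serpinb13, several of them serpins of stratified epithelium, differed by between -0.30 and 0.15 for BORG minus parental and were not called.

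No clade A gene passed the test. The 20 genes had means between 2.99 and 5.07, and none passed the median of all clusters. Differences ranged between -0.39 and 0.38 for BORG minus parental and between -0.41 and 0.31 for BORG/sgTRIM28 minus BORG, and 0 were called in any comparison. The 6 Serpina1 genes, copies of alpha-1-antitrypsin, ranged between -0.12 and 0.38 for BORG minus parental, and the 5 Serpina3 genes, copies of antichymotrypsin, between -0.39 and 0.26. Serpina6 and Serpina7 encode the carriers of corticosteroids and thyroxine and differed by 0.14 and -0.12. The median difference of clade A was -0.04 for BORG minus parental, 0.07 for BORG/sgTRIM28 minus BORG and -0.01 for BORG/sgTRIM28 minus parental, beside -0.03, 0.06 and 0.01 over all 22180 genes. For clade B the medians were -0.08, 0.12 and 0.02.

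**Figure D3:**
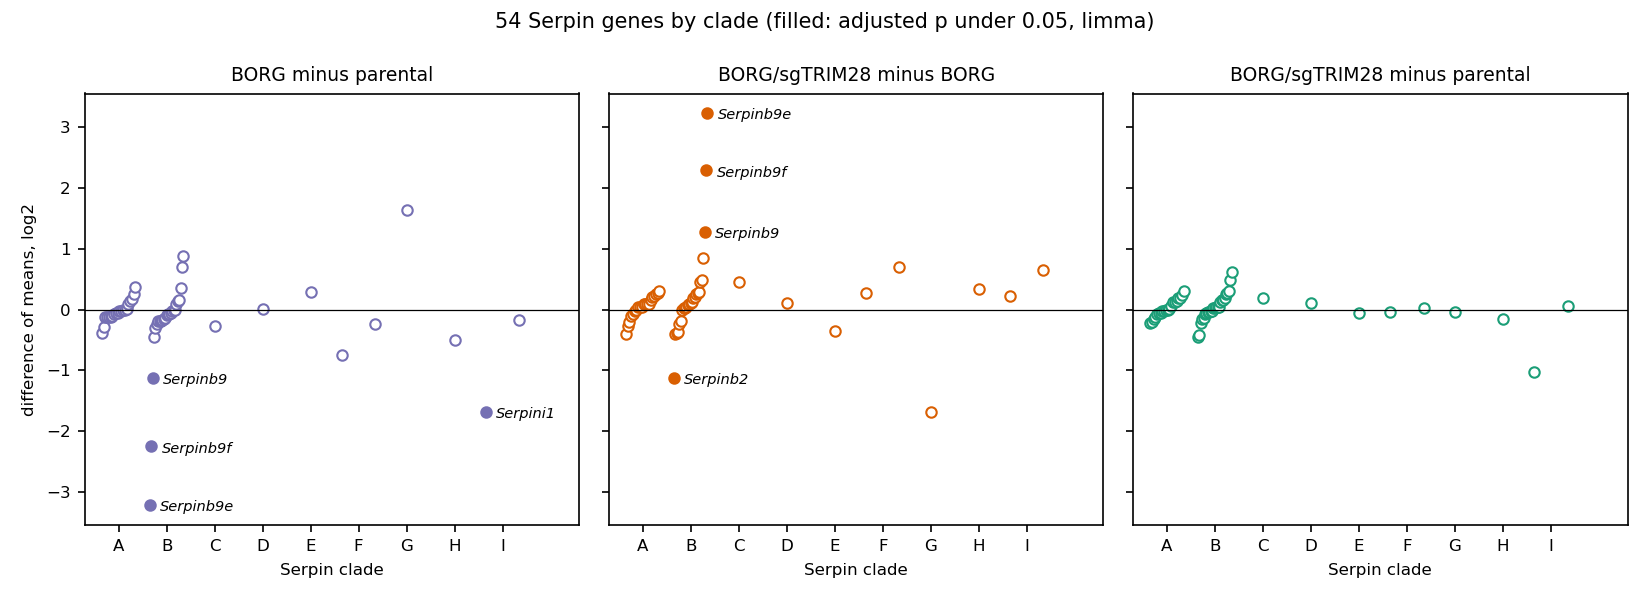
Difference of group means (log2, y axis) for all 54 Serpin genes by clade (x axis), 1 panel per comparison. Filled points had an adjusted p under 0.05 in limma and are named. Clade A stayed between -0.41 and 0.38 in all panels, and the called genes lay in clades B and I.

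The 9 genes of clades C to I encode mostly secreted serpins. Serpini1 encodes neuroserpin, an inhibitor of tissue plasminogen activator. It had signals of 4.18 and 4.31 in BORG/sgTRIM28 cells, 3.95 and 3.23 in BORG cells and 5.28 and 5.27 in parental cells. Parental arrays were the highest and did not overlap with either other group. It was 3.22-fold lower in BORG cells than in parental cells (log2 -1.69, SE 0.23, adjusted p = 0.0141), while the difference of 0.65 for BORG/sgTRIM28 minus BORG was not called (SE 0.23, adjusted p = 0.156). Its difference of -1.03 for BORG/sgTRIM28 minus parental did not pass either (SE 0.23, adjusted p = 0.282).

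Serping1 encodes the inhibitor of the complement protease C1. It had 3.84 and 4.17 in BORG/sgTRIM28 cells, 6.35 and 5.01 in BORG cells and 4.02 and 4.06 in parental cells. Both BORG arrays were above the others, with an SD of 0.95 between them. Neither the difference of 1.64 for BORG minus parental (SE 0.41, adjusted p = 0.0746) nor that of -1.68 for BORG/sgTRIM28 minus BORG (SE 0.41, adjusted p = 0.0602) was called. The C1 proteases C1ra and C1s1, which Serping1 inhibits, were not called in any comparison. Masp1, another complement protease, was called at -0.71 for BORG minus parental and at 0.68 for BORG/sgTRIM28 minus BORG.

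Serpinf1 encodes pigment epithelium-derived factor, a non-inhibitory serpin that acts on blood vessels. It had 7.80 and 7.81 in BORG/sgTRIM28 cells, 6.85 and 7.35 in BORG cells and 7.85 and 7.84 in parental cells. The BORG arrays were below the others, but the differences of -0.75 for BORG minus parental and 0.70 for BORG/sgTRIM28 minus BORG did not pass (SE 0.18 each, adjusted p = 0.0636 and 0.0634).

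Serpinh1 encodes HSP47, the chaperone of procollagen in the endoplasmic reticulum. It had 10.36 and 10.44 in BORG/sgTRIM28 cells, 10.01 and 10.11 in BORG cells and 10.54 and 10.57 in parental cells. The groups did not overlap, with the BORG arrays lowest. The difference of -0.50 for BORG minus parental lay just outside the threshold (SE 0.11, adjusted p = 0.0507), and that of 0.34 for BORG/sgTRIM28 minus BORG was not called (SE 0.11, adjusted p = 0.117). Serpinc1, which encodes antithrombin, Serpind1, which encodes heparin cofactor II, Serpinf2, which encodes alpha-2-antiplasmin, Serpine3 and Serpini2 differed by between -0.26 and 0.29 for BORG minus parental, and none was called.

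Counted over the family, 0 of 54 serpins were called higher and 4 lower (7.41%) in BORG cells than in parental cells. Over all clusters the shares were 4.12% higher and 2.98% lower. Signal matters here, since 13.1% of clusters above the median signal were called in this comparison and 1.08% of those below it. The 7 serpins above the median held 3 calls and the 47 below it held 1. In BORG/sgTRIM28 cells 3 serpins were called higher than in BORG cells (5.56%) and 1 lower (1.85%), against 4.24% higher and 5.31% lower over all clusters. These counts are of a few genes, and 3 of them are copies at 1 locus, so they describe those genes and not the family. In the comparison of BORG/sgTRIM28 with parental cells 0 serpins were called in limma, where 0.0484% of all clusters were called higher and 0.0726% lower. At an unadjusted p under 0.05 that comparison held 1 higher serpin, Serpinb9g, and 2 lower ones, Serpinb2 and Serpini1, and the methods' t-test also called 0. Serpinb9e, Serpinb9f and Serpinb9 differed there by 0.02, 0.04 and 0.16, with standard errors of 0.45, 0.20 and 0.11.

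The shares of serpins whose arrays did not overlap between groups were set beside those of all clusters. For BORG minus parental 7 serpins lay higher (13%) and 17 lower (31.5%) without overlap, beside 21.7% and 28.8% of all clusters. Between BORG/sgTRIM28 and BORG cells the counts were 21 (38.9%) and 9 (16.7%), beside 31.9% and 20.5%. Between BORG/sgTRIM28 and parental cells they were 13 (24.1%) and 9 (16.7%), beside 22.8% and 19.6%.

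With the test restricted to 1 cluster per gene, 9 serpins were called for BORG minus parental, with Serpinb2, Serpinb8 and Serping1 added as higher and Serpinf1 and Serpinh1 as lower, and 7 were called for BORG/sgTRIM28 minus BORG. With the methods' t-test 0 were called in any comparison after adjustment, and 8, 9 and 4 serpins had an unadjusted p under 0.05 for BORG minus parental, BORG/sgTRIM28 minus BORG and BORG/sgTRIM28 minus parental. For BORG minus parental, Serpinb9 and Serpinb9f were called without parental array 1, Serpinb9f alone without parental array 2, and 7 serpins without BORG array 2. Serpinb9e and Serpini1 thus lost the call without either parental array. For BORG/sgTRIM28 minus BORG, Serpinb9 and Serpinb9f were called without either BORG/sgTRIM28 array, Serpinb2 was lost and Serpini1 gained without BORG array 1, and 7 serpins were called without BORG array 2.

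Possible target proteases of serpins were read from a list of 51, of which 49 were measured. Whether a serpin inhibits each of them was not tested. In BORG cells 4 were called higher than in parental cells (8.16%) and 2 lower (4.08%), beside 4.12% and 2.98% of all clusters. Calls were more frequent at higher signal, since 7.67% of the clusters above the median signal were called higher and 5.44% lower in this comparison. For BORG/sgTRIM28 minus BORG those shares were 7.48% and 9.80%. Of the 49 proteases 26 lay above that median, and they held all 6 calls. Plau, the urokinase that Serpinb2 inhibits, had signals of 7.13 and 7.10 in BORG/sgTRIM28 cells, 10.58 and 10.02 in BORG cells and 6.88 and 7.21 in parental cells. BORG cells exceeded parental cells by 3.25 on the log2 scale (SE 0.21, adjusted p = 0.00167). Klk10, a kallikrein-related gene, differed by 2.82, Casp8, the initiator caspase, by 1.06, and Plat, the tissue plasminogen activator that Serpini1 inhibits, by 0.75 (SE 0.12, adjusted p = 0.0194). Casp1, the inflammatory caspase, fell (log2 -1.05), as did Masp1, a complement protease (log2 -0.71). In BORG/sgTRIM28 cells 3 proteases were called higher and 3 lower than in BORG cells (6.12% each, beside 4.24% and 5.31% of all clusters), with Plau at -3.18, Klk10 at -2.87, Casp8 at -1.09, Casp1 at 1.04, Tpsab1, a mast cell tryptase, at 0.78 and Masp1 at 0.68. The median over the list was -0.01 and 0.04 in these comparisons.

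A mixed list joined cofactors of serpins and receptors that clear serpin complexes with related receptors, such as integrins and receptors of pigment epithelium-derived factor. Of its genes 19 were measured, 14 of them above the median signal. The shares describe this mixed list and not cofactors or clearance receptors alone. In BORG cells 8 were called higher than in parental cells (42.1%, beside 4.12% of all clusters and 7.67% of those above the median signal) and 0 lower, with a list median of 0.25. Lrp1, which takes up serpin-protease complexes, had signals of 8.85 and 8.50 in BORG/sgTRIM28 cells, 11.87 and 11.71 in BORG cells and 9.61 and 9.62 in parental cells, with no overlap between groups. BORG cells exceeded parental cells by 2.17 (SE 0.15, adjusted p = 0.00187) and the difference was -3.11 for BORG/sgTRIM28 minus BORG (SE 0.15, adjusted p = 0.000496). Itgb3, an integrin subunit that binds vitronectin, differed by 2.40 and -3.15 in the same comparisons. Plxdc1, a receptor of pigment epithelium-derived factor, differed by 1.86 and -2.33, and Plaur, the urokinase receptor, by 1.28 and -1.57. In BORG/sgTRIM28 cells 9 of the 19 were called lower than in BORG cells (47.4%, beside 5.31% of all clusters and 9.80% of those above the median signal) and 1 higher. The higher one was Pnpla2, a lipase that also binds pigment epithelium-derived factor (0.68).

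Protease inhibitors of other families were set beside the serpins, and only some of them share targets with serpins. The metalloprotease inhibitors Timp1, Timp2 and Timp3 were in the list, while the protease list above held no metalloprotease. These Timp genes were among those called higher in BORG cells than in parental cells. Of 33 measured, 17 lay above the median signal. In BORG cells 5 were called higher than in parental cells (15.2%, beside 4.12% of all clusters) and 0 lower (beside 2.98%). In BORG/sgTRIM28 cells 1 was called higher than in BORG cells (3.03%, beside 4.24%) and 5 lower (15.2%, beside 5.31%). Among clusters above the median signal 7.67% were called higher and 5.44% lower for BORG minus parental. For BORG/sgTRIM28 minus BORG those shares were 7.48% and 9.8%. Spink5, a Kazal-type inhibitor of kallikreins, had signals of 4.78 and 5.17 in BORG/sgTRIM28 cells, 8.52 and 8.82 in BORG cells and 5.19 and 4.80 in parental cells, so the BORG arrays stood alone. Its differences were 3.68 for BORG minus parental (SE 0.21, adjusted p = 0.00102) and -3.70 for BORG/sgTRIM28 minus BORG (SE 0.21, adjusted p = 0.000709). Cst6, a cystatin, differed by 2.59 and -1.87, and the metalloprotease inhibitors Timp1 and Timp3 by 1.36 and 1.32 for BORG minus parental and by -1.67 and -1.38 for BORG/sgTRIM28 minus BORG. Slpi, an inhibitor of leukocyte elastase, was the 1 called higher in BORG/sgTRIM28 cells than in BORG cells (0.99).

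Genes that work with Serpinh1 on collagen were read beside it, in 1 list with genes of collagen chains. Of 21 measured, 18 lay above the median signal. In BORG cells 7 were called higher than in parental cells (33.3%, beside 4.12% of all clusters) and 2 lower (9.52%, beside 2.98%). Among clusters above the median signal the shares were 7.67% higher and 5.44% lower, and 7.48% and 9.8% for BORG/sgTRIM28 minus BORG. The collagen prolyl hydroxylases P4ha2 and P4ha3 differed by 2.02 and 1.44, and the lysyl hydroxylases Plod2 and Plod1 by 1.51 and 1.42. The collagen chains Col1a1 and Col5a1 were also among the 7, at 1.18 and 0.60. Hspa5, an endoplasmic reticulum chaperone, had signals of 11.40 and 11.45 in BORG/sgTRIM28 cells, 10.82 and 10.91 in BORG cells and 11.57 and 11.59 in parental cells. It differed by -0.72 for BORG minus parental (SE 0.10, adjusted p = 0.0163), and P3h2, a prolyl 3-hydroxylase, by -0.73. In BORG/sgTRIM28 cells 6 genes of the list were called lower than in BORG cells (28.6%, beside 5.31% of all clusters), among them P4ha3 (-2.29), P4ha2 (-1.95) and Plod1 (-1.77), and 1 was called higher (4.76%, beside 4.24%), which was Hspa5 (log2 0.56). No gene of these 4 lists was called for BORG/sgTRIM28 minus parental. Epithelial keratins moved in the same direction as the higher genes of these lists. Of the 6 fibroblast markers Pdgfra differed by -1.25 and Col1a1, already counted in the collagen list, by 1.18 for BORG minus parental. The part of the keratins and of these markers in the results was not tested. None of the endothelial, adipocyte and hepatocyte markers was called.

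**Figure D4:**
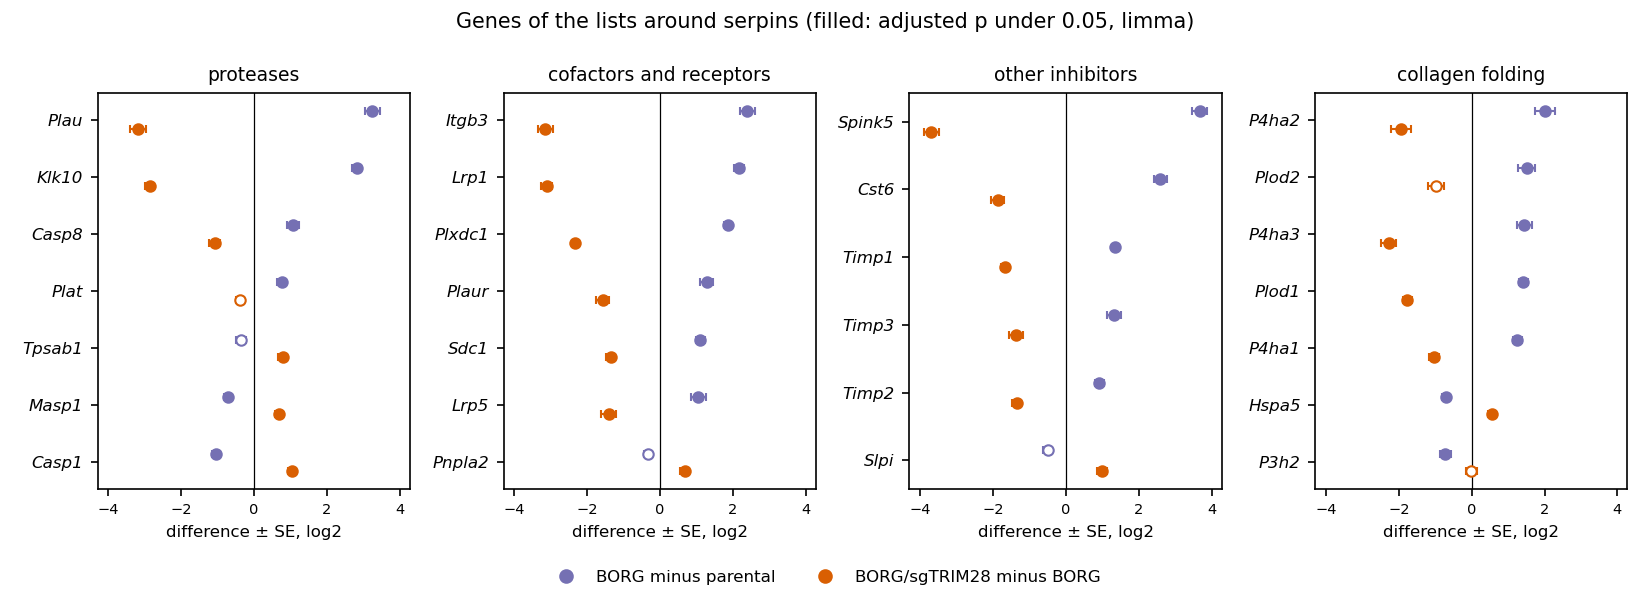
Difference of group means (log2, x axis, bars are standard errors from limma) for genes of the 4 lists, with BORG minus parental and BORG/sgTRIM28 minus BORG drawn for each gene (y axis). Filled points had an adjusted p under 0.05. Plau, Itgb3, Lrp1, Spink5 and P4ha2 lay above 2 for BORG minus parental and below 0 for BORG/sgTRIM28 minus BORG.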

How the data were processed

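RNA of 6 samples was measured on Affymetrix Mouse Gene 2.0 ST arrays. The authors normalized the probe intensities with Affymetrix Expression Console. Transcriptome Analysis Console is a second tool in the submitters' processing notes. What was deposited is a log2 signal for every transcript cluster on every array, and how probes were summarized is not stated in these sources. Gene names came from the platform annotation, and clusters with several symbols were assigned to no gene. Group means were fitted with limma 3.58.1 (R 4.3.3) on all 6 arrays, with empirical Bayes moderation and Benjamini-Hochberg adjustment. The fit was tested on simulated data. Promoters were aligned with Biopython 1.88. Named genes were called serpins, further serpins fixed by symbol, of which some are not reported here, and up to 4 called genes per list and comparison with the largest change. Plat, Masp1, Tpsab1, C1ra, C1s1, Pnpla2, Timp2, Slpi, Col5a1, Hspa5 and P3h2 fell outside that rule for the lists and were named with their values known. Serpinb8, the other Serpinb9 genes, Serpinb6a, Gzmb and Serpinb9g's promoter were added after their values were seen. The members and lists were chosen with earlier results of these data known. Alternatives were the replicate block, other normalizations, variance models, filters and tests, and leaving out each array. Since the arrays fall into separate groups, no correlation across arrays was computed.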

Additional observations from a re-analysis of the deposited data

How the results depend on the processing

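The 3 comparisons of 9 serpins gave 27 single-gene results, of which 8 were called. Those 8 kept their side of the threshold in 92 of 110 alternatives, and none changed direction. Many alternatives leave the difference itself unchanged and are no test of direction. Serpinb9 stayed at -1.12 for BORG minus parental with the replicate block, the variance trend, 1 cluster per gene and the methods' t-test. It was -1.14 with quantile normalization and -1.09 with median centring. Leaving out a BORG or parental array gave -1.18 to -1.05. The uncalled results passed the threshold in 24 of 256 alternatives and changed sign in 6. The cause of each change was not tested.

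Serpins called higher for BORG minus parental numbered 1 with a variance trend, 1 with quantile normalization, 3 with 1 cluster per gene, 3 with the mean over all clusters of a gene, 1 at 2-fold with an unadjusted p under 0.05, and 0 to 2 on leaving out an array. Those called lower numbered 0 with the methods' t-test and 1 to 5 on leaving out an array. Between BORG/sgTRIM28 and BORG cells, 5 were higher with a variance trend, 5 among clusters above the median signal, 5 with 1 cluster per gene, 5 with the mean over clusters, 0 with the methods' t-test, and 2 to 5 on leaving out an array. There 2 were lower with a variance trend, 0 among clusters above the median signal (fewer genes tested), 2 with 1 cluster per gene, 2 with the mean over clusters, 0 with the methods' t-test, 2 at 2-fold with an unadjusted p under 0.05, and 0 to 2 on leaving out an array. For BORG/sgTRIM28 minus parental, 1 was lower at 2-fold with an unadjusted p under 0.05.

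The clade B median was -1.12 for BORG minus parental and 1.28 for BORG/sgTRIM28 minus BORG among clusters above the median signal (5 genes left), and -0.141 to -0.0809 and 0.0807 to 0.181 on leaving out an array. For BORG/sgTRIM28 minus BORG the clade A median was 0.0105 with quantile normalization and 0.00915 with median centring, and 0.0177 to 0.0946 on leaving out an array, while the clade B median was 0.0653 with quantile normalization and 0.0577 with median centring. Against parental cells, leaving out an array gave BORG/sgTRIM28 medians of -0.0508 to 0.0502 for clade A and 0.0238 to 0.0713 for clade B. In that comparison Serpinb9e was -0.0103 with median centring, and leaving out an array gave -0.170 to 0.213 for Serpinb9e, -0.0992 to 0.184 for Serpinb9f and -0.200 to 0.130 for Serping1.

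With the replicate number as a block, 4 serpins were called for BORG minus parental, 4 for BORG/sgTRIM28 minus BORG and 0 for BORG/sgTRIM28 minus parental, and the block changed no call. Differences between the replicates correlated at 0.04, -0.04 and -0.01 between groups, so the arrays share only a number. The number of arrays limits the precision, since an exact two-sided permutation test of 2 arrays against 2 cannot go below 0.333.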

Other observations

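A cluster annotated to both 1110046J04Rik and Serpinb6a was assigned to no gene. It had signals of 4.88 and 5.06 in BORG/sgTRIM28 cells, 6.05 and 5.94 in BORG cells and 5.24 and 5.04 in parental cells, so both BORG arrays lay above the others. Its differences were 0.86 for BORG minus parental (adjusted p = 0.0192 from limma) and -1.03 for BORG/sgTRIM28 minus BORG (adjusted p = 0.00919), while the cluster annotated to Serpinb6a alone differed by 0.36 and -0.24 and was not called. The transcript behind this cluster is unknown here.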
